A study of Mus musculus with 4 samples.

Results

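The Kruppel-like factors examined here are 10 transcription factor genes of the mouse, Klf2, Klf3, Klf4, Klf6, Klf7, Klf9, Klf10, Klf11, Klf13 and Klf16, chosen by gene symbol from a table of 29247 gene IDs. They were measured by messenger RNA sequencing in macrophages sorted by flow cytometry from the liver of C57BL6J mice aged 8 weeks. There were 3 libraries of Cxcr4+ macrophages from mice given acetaminophen (APAP) at 300 mg/kg into the peritoneum and killed 72 h later, and 1 library of control macrophages from the same strain at the same age. APAP is a painkiller that destroys hepatocytes at high doses. A Cxcr4 gate is named for the APAP cells only, so the drug and the gate cannot be told apart. Whether each library is a separate animal is not stated either, and the p-values therefore reflect library-to-library spread that may be technical.

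Kruppel-like factors share a C-terminal zinc finger domain that binds GC-rich and CACCC sequences, and differ in the N-terminal part that recruits activators or repressors. In myeloid cells, KLF2 is known to restrain inflammatory gene expression, KLF4 to drive monocyte differentiation and, in mouse macrophages, alternative activation, and KLF6 to favour inflammatory gene expression. KLF3 represses through the CtBP corepressors, and KLF9, KLF10, KLF11, KLF13 and KLF16 recruit the SIN3A corepressor. In liver, the resident macrophages are the Kupffer cells, which recruited monocytes join after injury.

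The APAP libraries held 48282283, 52043418 and 56702837 counted reads, against 49950909 in control cells. Levels are given in CPM, read counts scaled to a common library size with edgeR's TMM factors, and genes were tested with edgeR's quasi-likelihood test with Benjamini-Hochberg adjustment over 18715 genes, called at an adjusted p of 0.05. With 1 control library the spread is that of the APAP libraries, and the test takes the control to share it. The first APAP library differed most from the others (chi-square per degree of freedom 37.5 and 62.8, against 18.2 between the second and the third). Cxcr4, the sort marker, stood at 84.4, 132 and 101 CPM in APAP cells, against 41.3 CPM in control cells. All 7 macrophage markers were detected in every library, with summed levels of 15746 to 18289 CPM in APAP cells, against 18448 CPM in control cells. Of these, 3 fell and 1 rose, but 1 fell without the second APAP library. Kupffer cell markers fell in 10 of 11 cases, and monocyte markers rose in 8 of 8, with Vcan and Chil3 at 0 reads in control cells. In these bulk samples, fewer cells of a type and less RNA per cell cannot be told apart.

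Klf2 was the member with the largest difference, at 0.282 times the control level, and most of the other genes stood much closer to the control. Of the 10 members, all passed the filter on low counts, 3 fell (Klf2, Klf11 and Klf16), 0 rose and 7 did not pass. Of all genes tested, 44.3% passed, 18.9% lower and 25.4% higher. The median log2 fold change was -0.12 over the members and 0.08 over all genes tested. At an unadjusted p of 0.05, edgeR found 4 members lower and 1 higher. The share of all genes at that unadjusted p was not counted, but cannot be under the 44.3% that passed after adjustment. After adjustment DESeq2 called 4 members lower and 1 higher, and limma-voom 3 lower and 0 higher. Of all 18715 genes, DESeq2 called 3269 lower and 4727 higher, and limma-voom 3644 lower and 4134 higher. For 5 of 10 members the APAP and control values did not overlap, against 84.8% of all genes tested. The control was the higher for 4 of them, against 39.2% of all genes, and the lower for 1, against 45.7%. Counts of members ran from 647 to 30662 reads over the libraries. Without the second APAP library Klf2 was the 1 member that fell.

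**Figure D1:**
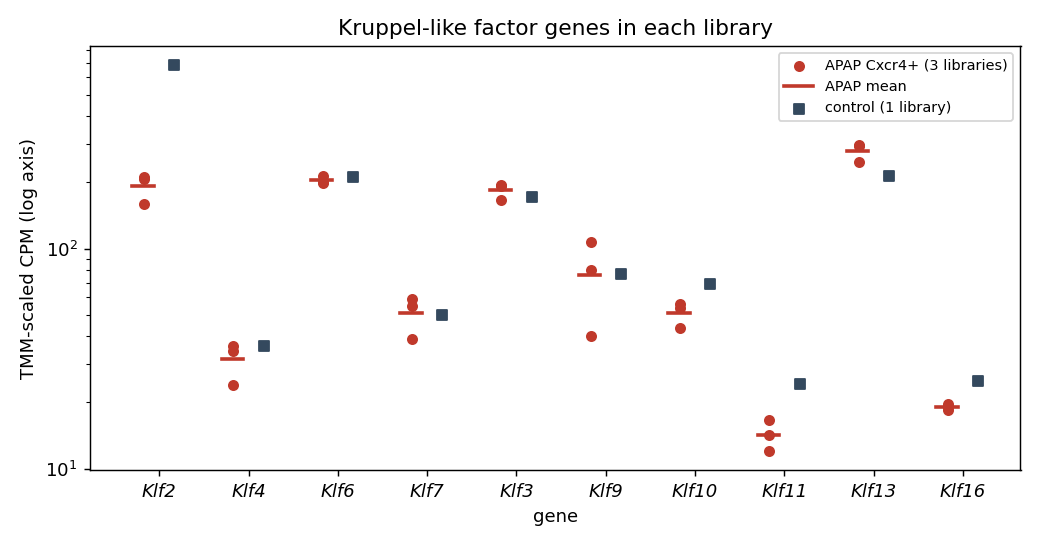
TMM-scaled CPM on a log axis for each of the 10 genes, with red points for the 3 APAP Cxcr4+ libraries, a red line for their mean and a dark square for the 1 control library. The control stands at 682 CPM for Klf2, above APAP values of 159.7 to 211, and lies within the APAP range for 5 genes.

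Klf2, which keeps lymphocytes quiescent and restrains myeloid activation, had 159.7, 211 and 207 CPM in APAP cells (8026, 11320 and 12118 reads), against 682 CPM in control cells (30662 reads). All APAP values lay far below the control. The log2 fold change was -1.83 (SE 0.16, 95% interval -2.22 to -1.43, edgeR adjusted p = 0.00127). Klf2 ranked in the lowest 3.35% of fold changes over all genes tested. It passed in all 13 alternative settings, with log2 fold changes from -1.90 to -1.53 and adjusted p of at most 0.0139. The fall also passed a test against a 2-fold change, the only member to do so.

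The Klf2 promoter is shown with those of Klf11, which also fell, and Klf13, the member with the highest fold change, because Klf2 is known to be induced through a MEF2 element by the kinase ERK5. The sequences, from RefSeq on build GRCm38.p6, run from 250 to 101 bases upstream of the start, on the strand of the gene. They lie at chr8:72318812-72318961 (plus strand) for Klf2, chr12:24651121-24651270 (plus strand) for Klf11 and chr7:63939016-63939165 (minus strand) for Klf13. Capitals mark a MEF2 element, a GC box (spelled GGGCGG) or the motif spelled CCAAT, searched on both strands.
Klf2: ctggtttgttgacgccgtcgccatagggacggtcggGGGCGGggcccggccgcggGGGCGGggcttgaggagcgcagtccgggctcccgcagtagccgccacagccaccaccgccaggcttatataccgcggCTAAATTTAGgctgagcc
Klf11: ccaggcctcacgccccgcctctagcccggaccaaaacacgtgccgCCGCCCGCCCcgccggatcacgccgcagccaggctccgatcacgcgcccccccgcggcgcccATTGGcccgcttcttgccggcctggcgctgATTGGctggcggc
Klf13: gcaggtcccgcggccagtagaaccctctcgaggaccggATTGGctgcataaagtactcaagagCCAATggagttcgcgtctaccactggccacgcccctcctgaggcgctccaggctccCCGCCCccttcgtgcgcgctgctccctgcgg
In these windows Klf2 held 2 GC boxes and a MEF2 element starting 118 bases upstream of the start, Klf11 held 2 GC boxes that share bases and 2 CCAAT boxes, and Klf13 held 1 GC box and 2 CCAAT boxes. Over the full windows of 300 bases, RefSeq promoters were matched for 8 of 10 members. A MEF2 element was found in 1 of the 8, against 3.19% of 32851 promoters of the same length, a GC box in 7 against 35.7%, a CCAAT box in 4 against 37.4%, and a CACCC box, also on either strand, in 5 against 57.5%. Motifs of different kinds shared bases once in Klf3 and once in Klf13. A match describes the letters of the window and not a site in use.

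Genes of the route known to induce Klf2 were mostly higher in APAP cells. Of 7 ERK5 and MEF2 genes 5 rose and the others did not pass (median log2 fold change 0.41). Mef2c, a MEF2 factor abundant in B cells and microglia, had 24.7, 28.4 and 22.7 CPM in APAP cells, against 1.80 CPM in control cells (log2 fold change 3.81, SE 0.21). Map3k2, a kinase upstream of ERK5, rose by 1.18 (SE 0.11), or 0.34 when corrected for transcript length and GC content (adjusted p = 0.0432). Mef2a and Mef2d were at 0.56 and 0.37 and Map3k3 at 0.41, while Mapk7, the gene of ERK5, was at 0.25 (adjusted p = 0.073) and Map2k5 at 0.09, neither past the test. Without the second APAP library 2 of the 7 rose, and Mef2a also did not pass once corrected in this way (0.25, adjusted p = 0.148). Wwp1, a ubiquitin ligase known to degrade KLF2, rose to 294, 300 and 310 CPM in APAP cells, against 116 CPM in control cells (log2 fold change 1.38, SE 0.10, corrected 0.85). Of 7 ligase genes it was the 1 that passed, with 2 passing without the first APAP library, and Smurf1 and Fbxw7, whose products also target KLF2, were at 0.06 and 0.33 (median of the list 0.18).

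Genes listed as targets of KLF2 went both ways. Among 5 genes regulated by KLF2 in lymphocytes 4 rose and 1 fell (median 1.75). The egress receptor S1pr1 had 16.0, 18.7 and 16.7 CPM in APAP cells, against 6.07 CPM in control cells (log2 fold change 1.50, SE 0.17). The receptor S1pr4 rose by 1.75 and Cd69, which KLF2-deficient lymphocytes are known to display, by 2.72. The integrin Itgb7, which KLF2 is known to promote in B cells, fell by 0.85 (SE 0.12). Among 6 genes listed as targets of KLF2 and KLF4 in endothelium, thrombomodulin (Thbd) fell by 0.74 (SE 0.14), Nostrin rose by 1.01, and 3 did not pass (median 0.43). Without the first APAP library 3 of the 6 rose, and without the second 1 did.

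Markers of lymphocytes and endothelium, cells known to express Klf2 strongly, were detected in these libraries. B cell markers rose in 11 of 12 cases, with summed levels of 530 to 794 CPM in APAP cells, against 155 CPM in control cells, where Cr2 had 0 counts. T cell markers rose in 9 of 12, with sums of 135 to 179 CPM in APAP cells, against 77.6 CPM in control cells, and no T cell marker was at 0 in the control. Kupffer cell markers summed to 13454 to 16794 CPM in APAP cells, against 35237 CPM in control cells. Endothelial markers fell in 4 of 12 cases and rose in 2, with sums of 592 to 728 CPM in APAP cells, against 797 CPM in control cells, and no endothelial marker was at 0 in the control. Without the second APAP library 2 fell and 1 rose, and without the third 5 fell and 1 rose. The adhesion molecule Pecam1 fell by 1.07 (SE 0.19) and the sinusoidal lectin Clec4g by 0.87 (SE 0.10), while the phosphatase Ptprb rose by 0.55 (SE 0.10) and the VEGF receptor Kdr by 0.41 (SE 0.12). The other 6 did not pass, and Ptprb was at -0.17 when corrected for length and GC content (adjusted p = 0.205). The part of lymphocytes, Kupffer cells or endothelium in the level of Klf2 was not tested.

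**Figure D2:**
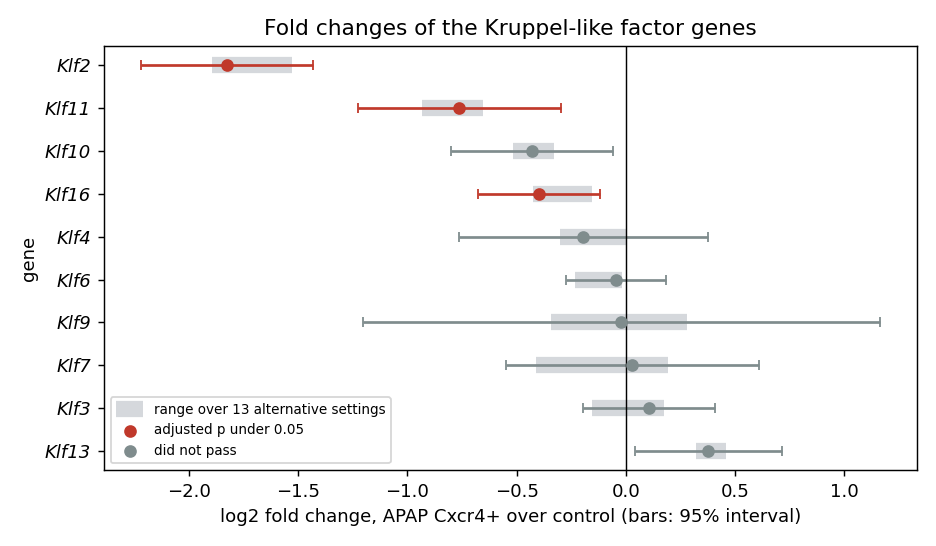
Log2 fold changes of the 10 genes, APAP Cxcr4+ over control, with bars for the 95% interval, grey bands for the range over 13 alternative settings, and red points for genes with an adjusted p under 0.05. Klf2 stands apart at -1.83, Klf11 and Klf16 are at -0.76 and -0.40, and the intervals of Klf4, Klf6, Klf7, Klf3 and Klf9 span 0.

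Klf4 was not called. It had 23.9, 36.0 and 34.3 CPM in APAP cells, against 36.0 CPM in control cells, with a log2 fold change of -0.19 (SE 0.23, 95% interval -0.77 to 0.38). The APAP libraries other than the first stood close to the control and the first below it. Among 6 alternative activation genes linked to KLF4 in mouse macrophages, 2 rose and 1 fell (median 0.55). The lipid regulator Pparg had 34.1, 28.0 and 34.8 CPM in APAP cells, against 13.8 CPM in control cells (log2 fold change 1.23, SE 0.17). Chil3, also a monocyte marker, had 47.2 ± 13.2 CPM in APAP cells (SD, n = 3), against 0 reads in control cells, at least 708-fold higher taking 3 control counts as the floor. The arginase gene Arg1, at -1.08, did not pass (adjusted p = 0.18), but did without the third APAP library (-1.60, adjusted p = 0.00419). The interleukin 4 receptor chain Il4ra was called at -0.30 (adjusted p = 0.0469), a call lost in 7 alternatives beside the 2-fold test, with adjusted p of 0.0538 to 0.121.

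Klf6 varied little, with a coefficient of variation of 3.89% over the APAP libraries. Its level was 198, 213 and 201 CPM in APAP cells, against 211 CPM in control cells, which lay within the APAP range. The log2 fold change was -0.05 (SE 0.09), with a 95% interval from -0.28 to 0.18. Klf7, its closest relative by structure, had 38.7, 55.1 and 59.1 CPM in APAP cells, against 50.0 CPM in control cells, a log2 fold change of 0.03 (SE 0.23, 95% interval -0.55 to 0.61), which was -0.41 after the length and GC correction. Neither gene passed in any of the 13 alternatives.

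Klf3, the CtBP-dependent repressor, had 166, 193 and 196 CPM in APAP cells, against 172 CPM in control cells. The groups overlapped and the log2 fold change of 0.10 (SE 0.12, 95% interval -0.20 to 0.41) did not pass. Of its corepressors, Ctbp1 stood at 142, 134 and 132 CPM in APAP cells, against 178 CPM in control cells (-0.39, SE 0.09, adjusted p = 0.018), and Ctbp2 was at 0.10 without a call. The Ctbp1 call was lost without the second APAP library (adjusted p = 0.0945) and when corrected for length and GC content, at -0.19 (adjusted p = 0.135). The partner Fhl3 was at 0.11 and did not pass.

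The members that recruit SIN3A ran from a fall in Klf11 to a value above 0 in Klf13 that missed the threshold. Klf11, a repressor related to Klf10, had 14.2, 12.0 and 16.6 CPM in APAP cells, against 24.2 CPM in control cells. All APAP values were below the control, and the log2 fold change was -0.76 (SE 0.19, adjusted p = 0.0222). It passed in 11 of 13 alternatives, and missed the threshold without the second APAP library (-0.65, adjusted p = 0.0524) and against a 2-fold change.

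Klf16 was the tightest member across the APAP libraries, at 19.0, 18.5 and 19.7 CPM, against 25.1 CPM in control cells. Its log2 fold change of -0.40 (SE 0.11, adjusted p = 0.034) was called in 8 of 13 alternatives. It missed the threshold when the second or the third APAP library was left out (adjusted p = 0.115 and 0.0513), with no count filter (0.0646), against a 2-fold change, and once corrected for length and GC content, at -0.16 (adjusted p = 0.31).

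Klf10, known as an early gene induced by TGF-beta, had 56.1, 43.8 and 53.8 CPM in APAP cells, against 69.1 CPM in control cells. The groups did not overlap, but the log2 fold change of -0.43 (SE 0.15) missed the threshold (adjusted p = 0.0618). It was called in 4 of 13 alternatives, without the first or the third APAP library (-0.50 and -0.45, adjusted p = 0.0156 and 0.0444), by DESeq2 and after the length and GC correction. Of 9 genes of the TGF-beta pathway 5 rose and the others did not pass (median 0.56). The receptor Tgfbr1 had 251, 281 and 267 CPM in APAP cells, against 126 CPM in control cells (log2 fold change 1.08, SE 0.11, corrected 0.70), and Tgfbr2 and Tgfb1 were at 0.00 and -0.17 without a call. The signal transducers Smad3 and Smad4 rose by 0.62 and 0.63, and the pathway repressors Ski and Skil by 0.70 and 0.56.

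Klf13, which is known to activate Ccl5 in T cells, was the member with the highest fold change, at 247, 297 and 293 CPM in APAP cells, against 215 CPM in control cells. All APAP values were above the control. The log2 fold change of 0.38 (SE 0.14) missed the threshold in edgeR (adjusted p = 0.0677). Leaving out the first APAP library gave 0.46 (adjusted p = 0.00216). DESeq2 (0.0434) and a fit to all genes whatever their counts (0.0453) also called it, and limma-voom (0.0699) did not.

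Klf9, a repressor induced by glucocorticoids, varied most within the APAP group. It had 40.1, 79.6 and 107 CPM in APAP cells, against 76.8 CPM in control cells, a coefficient of variation of 44.5% where the other members had 3.23% to 21.2%. The control lay inside this range, and the log2 fold change was -0.02 (SE 0.48, 95% interval -1.21 to 1.16), so a change of either sign up to about that size was not detectable. Without the first APAP library the value was 0.28 and without the third -0.34, neither past the test (adjusted p = 0.188 and 0.385).

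Genes of the glucocorticoid response were also lowest in the first APAP library. That library was the lowest of the 3 for 7 of 7 genes of that list, for 7 of the 10 Kruppel-like factors and for 36.7% of all genes tested. It was also the lowest for 8 of 9 TGF-beta genes and 11 of 12 B cell markers, so the pattern was not limited to this list, which was singled out after its values were seen. Fkbp5, a chaperone of the glucocorticoid receptor, had 150.0, 244 and 462 CPM in APAP cells, against 353 CPM in control cells. Per1, a clock gene with glucocorticoid response elements, had 48.4, 151 and 130 CPM in APAP cells, against 146 CPM in control cells. Neither passed the test, at -0.30 and -0.41 (adjusted p = 0.673 and 0.574). Tsc22d3, which encodes the anti-inflammatory protein GILZ, had 115, 252 and 260 CPM in APAP cells, against 532 CPM in control cells (log2 fold change -1.35, SE 0.41, adjusted p = 0.0418), a call lost without the second APAP library (-1.50, adjusted p = 0.0703) and by DESeq2 (0.0785). Zbtb16, an induced transcription factor, was at 5.83, 6.94 and 10.1 CPM in APAP cells, against 1.25 CPM in control cells (log2 fold change 2.61, SE 0.41), and Nr3c1, the receptor itself, at 0.44 (adjusted p = 0.0428; 0.136 without the second APAP library, 0.0509 without the third and 0.711 after the length and GC correction). In all, 2 of the 7 rose and 1 fell (median -0.30). Without the second APAP library 1 rose, and without the third 1 rose and 3 fell, while without the first 2 fell.

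**Figure D3:**
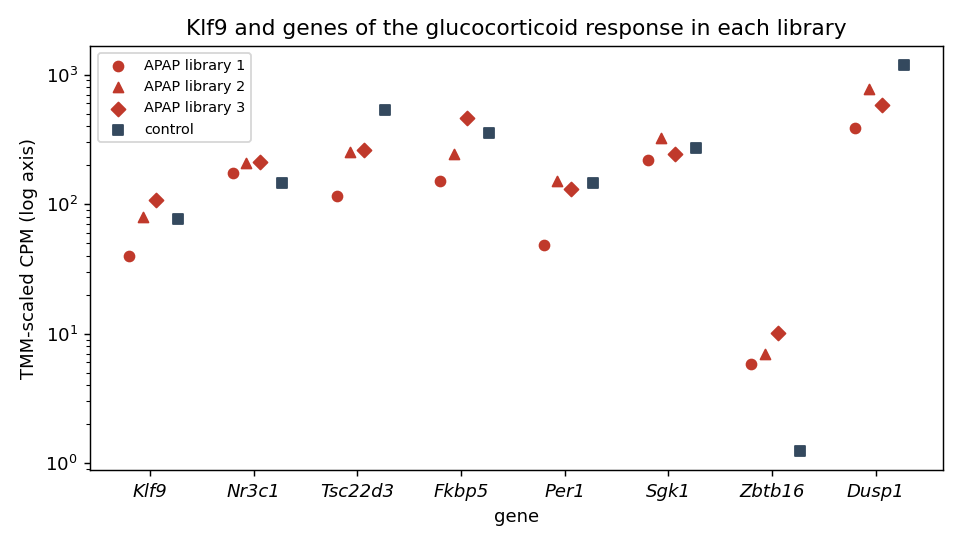
TMM-scaled CPM on a log axis for Klf9 and the 7 genes of the glucocorticoid list, with 1 red symbol for each APAP library and a dark square for the control. For each gene the first APAP library is the lowest of the 3, with Klf9 at 40.1 CPM there and at 79.6 and 107 CPM in the others.

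Per length of transcript, Klf2 was the most abundant member in every library. On the scale of TPM, reads per kilobase of the longest coding transcript in GENCODE M21 scaled to a common total, it stood at 206, 271 and 268 TPM in APAP cells, against 628 TPM in control cells. Klf6 came next at 112 to 120 TPM in APAP cells, then Klf13 at 92.1 to 110 TPM and Klf3 at 75.9 to 89.6 TPM, and these ranges did not overlap. Klf9 (21.4 to 57.0 TPM), Klf10 (34.1 to 44.0 TPM) and Klf4 (18.9 to 28.2 TPM) followed, with Klf9 overlapping both of the others. Klf7 (12.1 to 18.4 TPM) and Klf16 (16.4 to 17.7 TPM) overlapped, and Klf11 was lowest at 6.99 to 9.70 TPM. The control had the same first 4 and the same last gene, in the same order, at 628, 85.0, 57.2, 56.1 and 10.1 TPM. TPM takes no TMM factor, so it ranks genes within a library and can differ from CPM between groups. Klf6, Klf3 and Klf7 stood above the control in TPM, whereas in CPM the control lay within their APAP range. Klf16, called lower on CPM, had the opposite sign in TPM. All its APAP values, 16.4 to 17.7 TPM, lay above the 16.0 TPM of control cells. Klf10 averaged 40.1 TPM in APAP cells, against 38.6 TPM in control cells, though its CPM lay below the control.

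Klf2 made up a smaller part of the pool in APAP cells. Its share of the summed reads per kilobase of the 10 genes was 33.9%, 36.9% and 35.6% in APAP cells, against 66.0% in control cells. The shares of Klf6 and Klf13 were 16.6% and 14.9% on average in APAP cells, against 8.93% and 6.01% in control cells. Because Klf2 is part of the sum, a lower Klf2 raises the shares of other genes even at an unchanged level. The log2 fold changes of Klf6 and Klf13 were -0.05 and 0.38, neither called. Without division by length, Klf2 took 16.6%, 18.2% and 17.4% of the summed CPM in APAP cells, against 43.7% in control cells. On that scale Klf13 had the highest share in APAP cells, 25.3% on average, against 13.8% in control cells. In CPM, the 10 genes summed to 963, 1159 and 1187 in APAP cells, against 1561 in control cells, while the 9 genes other than Klf2 summed to 803, 948 and 980.1 in APAP cells, against 879 in control cells. The control sum lay above the APAP range with Klf2 and inside it without Klf2.

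**Figure D4:**
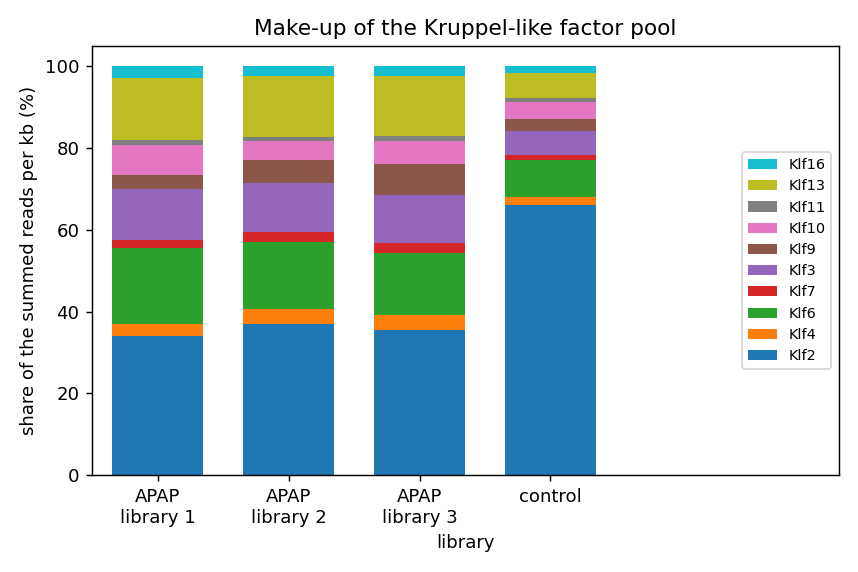
Share of the summed reads per kilobase taken by each of the 10 genes, as stacked bars that add to 100% in each of the 3 APAP libraries and the control. Klf2, the lowest block, takes 33.9% to 36.9% in APAP cells, against 66.0% in control cells.

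The remaining Kruppel-like factors were scarce. Of 7 others, 5 were in the table and tested, of which 3 rose and the others did not pass (median log2 fold change 3.14, or 1.88 with genes at 0 in the control at their bound). Klf8, a repressor that binds CtBP, had 1.47, 1.40 and 1.02 CPM in APAP cells, against 0 reads in control cells, at least 19.4-fold higher. Klf12, also a CtBP-binding repressor, had 0.796, 0.670 and 0.938 CPM in APAP cells, against 0.089 CPM (4 reads) in the control (log2 fold change 3.14, SE 0.60, adjusted p = 0.00998). The erythroid factor Klf1 had 0.239, 0.261 and 0.239 CPM in APAP cells, against 0 reads in control cells, at least 3.69-fold higher, and was not called without the second APAP library (adjusted p = 0.0574). Erythroid markers summed to 31.6 to 181 CPM in APAP cells, against 224 CPM in control cells, and their part in the level of Klf1 was not tested. Klf15, at 4.50, 4.43 and 6.43 CPM in APAP cells, against 5.12 CPM in control cells, and Klf5, at 0.279 to 0.426 CPM in APAP cells, against 0.178 CPM in control cells, did not pass.

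The Sp factors, zinc finger factors that bind the same GC boxes, were higher in APAP cells. All 4 of those tested rose (median 0.70), and the other 4 in the table had too few reads to test. Sp1 had 156, 163 and 157 CPM in APAP cells, against 96.0 CPM in control cells (log2 fold change 0.73, SE 0.09), and Sp3 had 112, 112 and 107 CPM in APAP cells, against 68.7 CPM in control cells (0.68, SE 0.09). Sp4 rose by 1.06 (SE 0.17) and Sp2 by 0.42 (SE 0.09, adjusted p = 0.0164; 0.0668 without the second APAP library). When corrected for length and GC content all 4 still passed, with Sp1 at 0.29 (adjusted p = 0.0476), Sp3 at 0.37, Sp4 at 0.61 and Sp2 at 0.65. None of the 4 passed a test against a 2-fold change with edgeR's glmTreat.

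Cofactors were split. Both related acetyltransferases that act as coactivators rose, Ep300 to 308, 318 and 300.2 CPM in APAP cells, against 113 CPM in control cells, and Crebbp by 1.04 (SE 0.09), while Kat2a and Kat2b did not pass (median of the 4 genes 0.59). The same correction put Ep300 at 0.96, where it had been 1.45, and Crebbp at 0.50, both still past the test. Of 10 corepressor genes, 2 rose and 4 fell (median -0.08). Rcor1 rose by 1.24 (SE 0.14) and Sin3a, which binds KLF9, KLF10, KLF11, KLF13 and KLF16, by 0.57 (SE 0.09), or 0.30 for Sin3a when corrected (adjusted p = 0.04). The deacetylase genes Hdac1, Hdac2 and Hdac3 and Ctbp1 fell by 0.41, 0.59, 0.35 and 0.39, and the count of falls was 1 without the second APAP library, 2 without the third and 1 after the length and GC correction. Across all genes tested with a known length, higher fold changes went with longer transcripts (Spearman's rho 0.268 over 18644 genes, which share libraries and are no replicates).

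**Figure D5:**
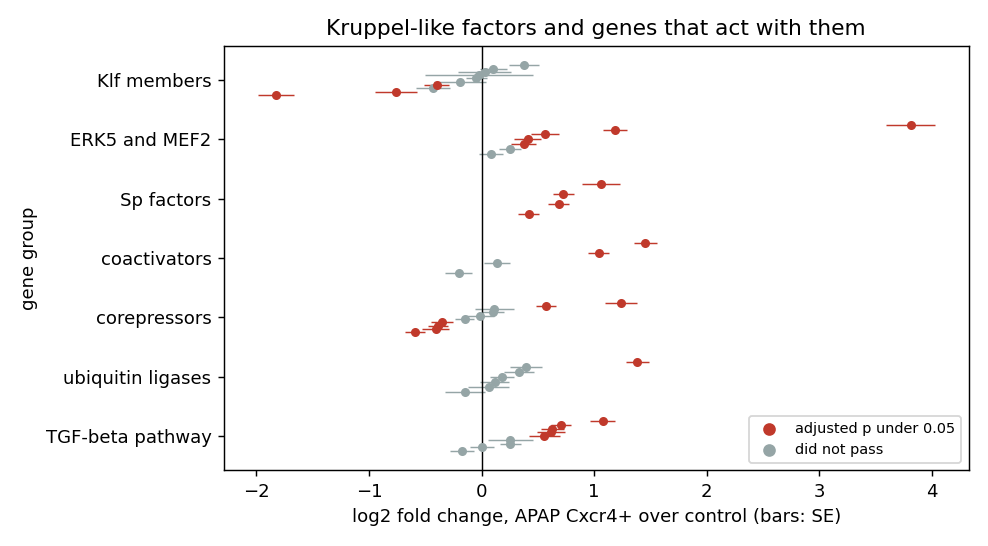
Log2 fold changes, APAP Cxcr4+ over control, for the 10 Kruppel-like factors and for genes of 6 groups that act with them, with bars for the SE and red points for an adjusted p under 0.05. Of the 10 Kruppel-like factors shown, those that passed lie below 0. The ERK5 and MEF2, Sp and TGF-beta genes that passed lie above 0. The scarce Klf1, Klf8 and Klf12, which rose, are not shown.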

How the data were processed

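Messenger RNA was sequenced in 4 libraries of sorted liver macrophages, 3 of APAP Cxcr4+ cells and 1 control. The deposited values are raw read counts per Ensembl gene, made with HISAT2 and Subread on build mm39, per the submitters' processing notes. Neither tool versions nor annotation, strand setting or treatment of shared reads is known here, so overlapping and antisense genes may share reads. The APAP columns have no replicate numbers and are numbered by their place in the table. Symbols were matched for 28926 of 29247 IDs (98.9%), including all 10 members.

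The test was that of edgeR 4.0.16 under R 4.3.3 (filterByExpr with minimum count 10 and minimum total 15, TMM factors, glmQLFit and glmQLFTest, no covariates, adjusted p of 0.05), with 2 residual and 3.80 prior degrees of freedom. Checked on simulated counts of this comparison (17825 genes), it called 43.3% of the 67 genes altered 2-fold, 100% of the 67 altered 4-fold and 10 of 17625 others. The simulation gave every gene and every library, the control included, the same dispersion. It therefore cannot show the error rate under gene-specific spread or with a deviating control. Alternatives were DESeq2 1.42.0 size factors and Wald test, upper-quartile factors, other count filters, limma-voom 3.58.1, glmTreat, a correction for length and GC content (mgcv 1.9.3), gene classes left out, and each APAP library left out. CPM floors are 3 counts and cover counting error only. The length scale uses GENCODE M21 on GRCm38, a different build, for transcript lengths only.

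The members and gene lists were chosen with earlier results of these data known. The text names all members, the other Kruppel-like and Sp genes with at least 10 counts in some library, and up to 4 genes per list with the smallest p-values. Genes of the lists named beyond these were picked after their values were seen. Some genes of the lists are counted but not reported by name here.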

Additional observations from a re-analysis of the deposited data

How the results depend on the processing

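Klf2 fell in each of the 13 alternatives. The count of members that fell was 3, 1 when tested against a 2-fold change, and 1 to 4 when each APAP library was left out. The count that rose was 0, 1 with no count filter and 1 by the DESeq2 Wald test, and 0 to 1 when each APAP library was left out. Signs changed for members near 0. After the length and GC correction Klf4 was at 0.0028, Klf7 at -0.41 and Klf3 at -0.16, and with no count filter Klf9 was at 0.0088. With each APAP library left out, Klf7 ran from -0.075 to 0.19 (-0.031 without the second), Klf9 from -0.34 to 0.28 and Klf15 from -0.18 to 0.10. Klf15 was at -0.022 with upper-quartile factors, -0.012 with limma-voom and -0.0037 without mitochondrial and ribosomal protein genes. Kat2a, Kat2b and Ptprb changed sign after the length and GC correction, at 0.048, -0.089 and -0.17. The cause was not tested. Over all genes, 8295 were called, 5001 without the second APAP library and 1379 against a 2-fold change. No paired analysis was possible because there was 1 control library for 3 APAP libraries. The control library cannot be left out, and its own spread is unknown, so a deviating control would move every fold change given here.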

Other observations

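Among 5 cell cycle regulators listed as responding to Kruppel-like factors, Cdkn1a and Cdkn1b rose, Ccnd1 fell, and Cdkn1c and Cdkn2b did not pass. Cdkn1a, the inhibitor p21 that KLF4 and KLF6 are known to induce, had 79.0, 86.7 and 114 CPM in APAP cells, against 17.1 CPM in control cells (log2 fold change 2.44, SE 0.24, edgeR adjusted p = 0.00168). Cyclin D1 (Ccnd1) had 38.6, 34.3 and 43.1 CPM in APAP cells, against 108 CPM in control cells (-1.48, SE 0.13, edgeR adjusted p = 0.00129). Cdkn1b was called at 0.47, but not without the second APAP library (edgeR adjusted p = 0.0633). Cdkn1c and Cdkn2b were at -0.31 and -0.49 (edgeR adjusted p = 0.502 and 0.216), and the median of the 5 genes was -0.31.

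Klf2, Klf4 and Klf6 are known to respond to tissue dissociation, and the immediate early and heat shock list went both ways. Of 19 genes, 7 rose and 6 fell (median 0.01), with 3 falls without the second APAP library and 2 after the length and GC correction. Egr1 rose by 1.97 (SE 0.13), Fosb by 1.84 (SE 0.18) and Atf3 by 1.84 (SE 0.25). Jund fell by 1.54 (SE 0.08), Dnajb1 by 1.04 (SE 0.16) and Hspa1a by 1.66 (SE 0.46). The summed level was 2999 to 3378 CPM in APAP cells, against 3458 CPM in control cells. The part of cell handling in the level of Klf2 was not tested.

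Other cell types were marked as well. Neutrophil markers rose in 5 of 9 tested (4 of 10 had 0 reads in control cells), plasmacytoid dendritic cell markers in 6 of 8 with 1 lower (Siglech had 0 reads in control cells), conventional dendritic cell markers in 7 of 8 with 1 lower, and NK cell and ILC1 markers in 5 of 8 with 1 lower (3 higher without the second APAP library). By limma-voom 1 neutrophil marker and 2 NK cell and ILC1 markers rose. Hepatocyte markers fell in 12 of 13, 8 without the second APAP library, with sums of 1490 to 2357 CPM in APAP cells, against 3708 CPM in control cells. Stellate cell and fibroblast markers rose in 4 and fell in 4 of 10.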
